A study of Mus musculus with 10 samples.

Results

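Liver metastases were set against lung tumors in mice of 1 genotype, RPR2;Nfibf/f, called Nfib-floxed here. The comparison rests on 5 RNA libraries of the 10 in the study: liver metastases of mice JHK1398 and JHK1399, against lung tumors of JHK997, JHK1398 and JHK1399. The libraries were chosen by genotype and tissue as labelled, and 15243 of 35288 genes were tested, those whose TPM averaged 1 or more over these 5 libraries. TPM is a transcript level scaled for gene length and library total, so that every library has the same sum. The series title places the question in metastasis that does and does not depend on NFIB, in small cell lung cancer. RPR2 is known as a model with conditional deletion of 3 tumor suppressors, Rb1, Trp53 and Rbl2, in the lung by Cre recombinase, so all 10 tumors share those alleles. The Nfib-floxed tumors carry conditional alleles of Nfib in addition, and the labels do not give the Cre, the ages or the sexes. Metastases of JHK1373 and JHK1394 and lung tumors of JHK1373, JHK1394 and JHK1548, all RPR2 without the Nfib alleles, serve below as a second pair of tissues. All tumors were macrodissected when the mice were moribund, so each library is bulk RNA of tumor cells and whatever lung or liver came with them. In such samples fewer cells of a type and less RNA per cell cannot be told apart.

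Small cell lung cancer is a neuroendocrine carcinoma that arises in the airway epithelium and spreads early, often to the liver. NFIB belongs to the nuclear factor I family of DNA-binding proteins; its gene is amplified in many mouse tumors of this kind and is known to promote their spread. A tumor in the lung lies among airway club cells, alveolar cells and mucosal plasma cells, and one in the liver among hepatocytes, sinusoidal endothelium and Kupffer cells.

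The 5 libraries were not alike within a group. The lung tumor of JHK1398 stood apart: mitochondrially encoded genes took 12.9% of its TPM against 5.41% to 7.13% in the other 4, and the club cell gene Scgb1a1 took 5.02%, against 0.469% and 0.136% in the other lung tumors. Its Pearson correlations with the other 4 libraries, over tested genes on log2(TPM + 1), were 0.80 to 0.85, against 0.87 to 0.91 among those 4. The metastasis of JHK1398 had 26.3 TPM of Alb, which encodes albumin, the main product of hepatocytes, within the 24.5 to 47.9 TPM of the lung tumors, while the metastasis of JHK1399 had 1159 TPM. The JHK1398 metastasis also correlated more highly with an RPR2 lung tumor, that of JHK1373 (0.93), than with the other Nfib-floxed metastasis (0.91). The JHK1399 metastasis did the same by a smaller margin, at 0.914 and 0.913, so the order alone does not set the JHK1398 library apart. Scgb1a1 was 6.92 TPM in the JHK1398 metastasis, against 1358 to 50157 TPM in the Nfib-floxed lung tumors. Low Alb thus does not bear out the label of this library as a liver metastasis, and low Scgb1a1 does not mark a lung tumor. The label was not otherwise checked. This library is 1 of the 2 metastases behind every difference below. Calca, the gene of calcitonin and CGRP, took 0.547% and 0.604% of the TPM in the metastasis and lung tumor of JHK1398, and 5.75% to 7.19% in the other 3 libraries. The lung tumor of JHK997 had 309 TPM of Y-linked genes in all and the other 4 libraries 1.46 to 2.75 TPM, and no metastasis of JHK997 is among the libraries. Levels are given below in the order JHK1398 and JHK1399 for Nfib-floxed metastases, JHK997, JHK1398 and JHK1399 for Nfib-floxed lung tumors, JHK1373 and JHK1394 for RPR2 metastases, and JHK1373, JHK1394 and JHK1548 for RPR2 lung tumors. Nfib itself had 46.1 and 41.3 TPM in the metastases, against 38.6, 38.0 and 26.5 TPM in the lung tumors. A total over the gene does not show whether the floxed part is present, so these levels check no label. In RPR2 mice Nfib had 62.8 and 643 TPM in the metastases and 85.3, 28.3 and 118 TPM in the lung tumors. The Nfib-floxed tissue difference of 0.36 ± 0.83 (SE) on the log2 scale did not pass (adjusted p = 0.93).

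In the metastases, 19 of 15243 genes (0.125%) fell and 0 rose, by limma on log2(TPM + 1) with a Benjamini-Hochberg adjusted p under 0.05. At an unadjusted p under 0.05 there were 1058 lower and 412 higher genes, 9.64% of those tested. Of the 19, 12 were immunoglobulin genes or Jchain, and the other 7 were Cbr2, Fmo2, Mgp, Mfap5, Rasgrf1, Samd9l and Rps4l. Every one of the 19 was lower in both metastases than in all 3 lung tumors, and lower in the metastasis than in the lung tumor of the same mouse for JHK1398 and for JHK1399. Over all genes tested, 14.6% were lower and 7.64% higher without overlap of the groups, 53.8% had a difference below 0, and the median log2 difference was -0.05. A gene near 0 TPM in the metastases could pass the filter only through the lung tumors. Shares lower without overlap in the lists below are therefore descriptions and not support. The calls depended on single libraries. Without the lung tumor of JHK1398 no gene passed, the smallest adjusted p of the 9 genes named here being 0.0517. Their fitted differences without that library, all below 0, are given below. Without the JHK1398 metastasis 1 gene of the 19 stayed called and without the JHK1399 metastasis 2 did, Mgp in both cases, with Fmo2 in the second. Without the lung tumor of JHK997 there were 3 lower genes, Mgp among them, and without the RPR2 lung tumor of JHK1548, which enters the estimate of spread, there were 33. With mouse as a fixed block, a fit in which the lung tumor of JHK997 adds nothing to the tissue difference because that mouse has no metastasis here, Mgp alone of the 19 stayed called (adjusted p = 0.038), and 4 genes passed in all.

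**Figure D1:**
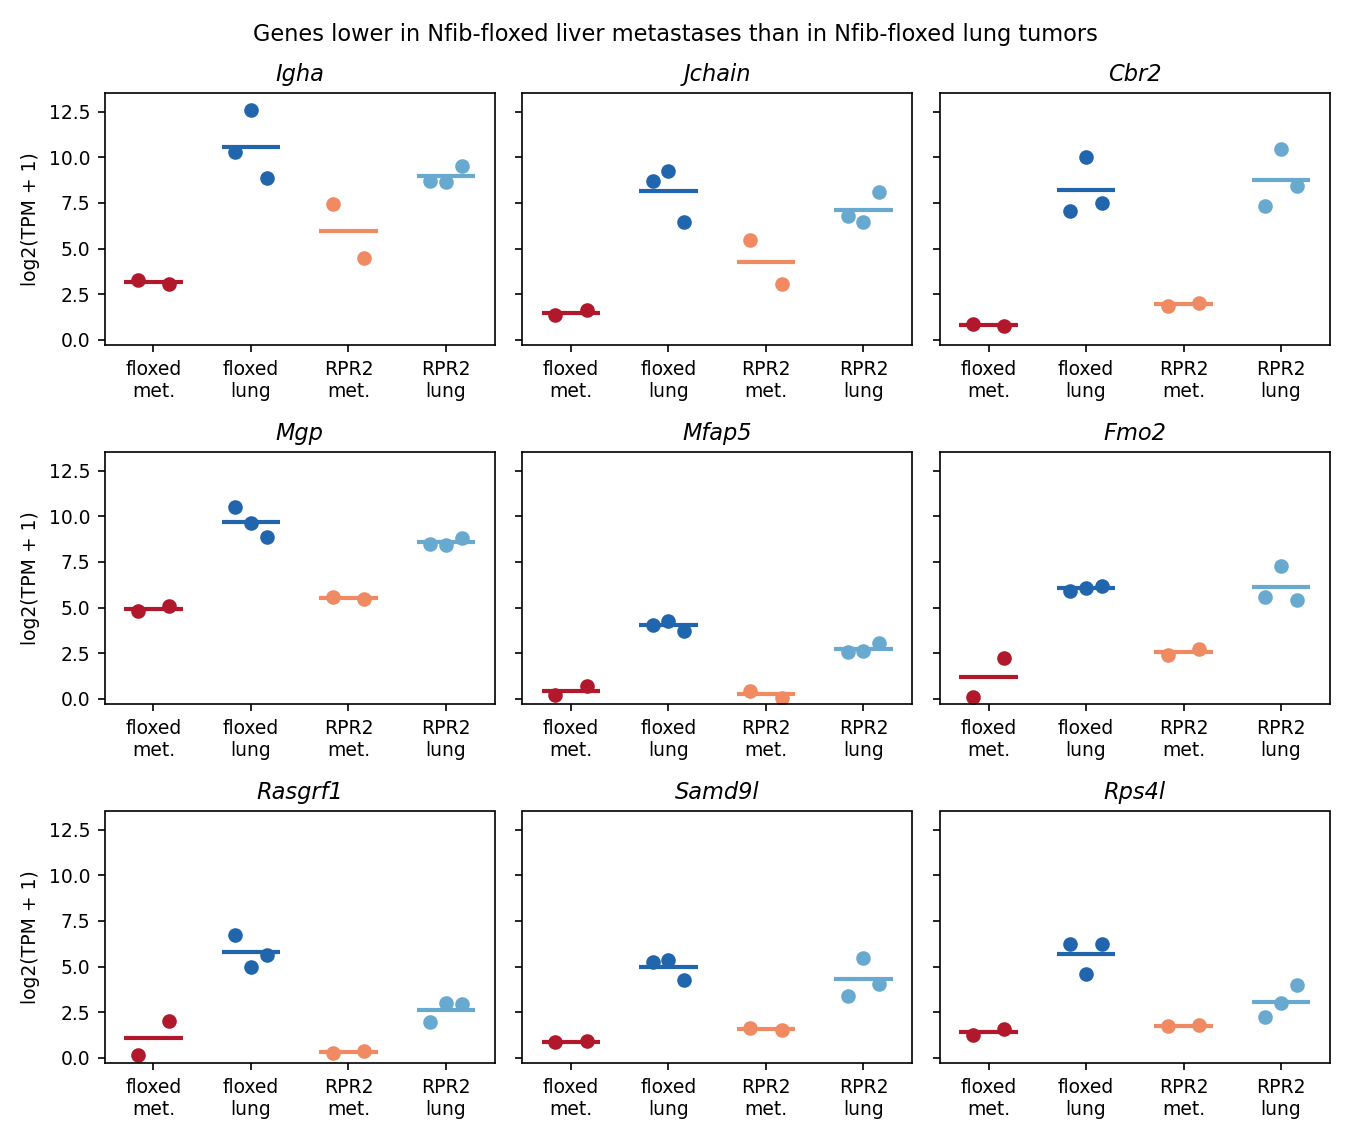
Level of each of the 9 named genes that fell, as log2(TPM + 1) on the vertical axis. Each point is 1 tumor and each line a group mean, with Nfib-floxed metastases (n = 2) and lung tumors (n = 3) left of RPR2 metastases (n = 2) and lung tumors (n = 3). In all 9 panels both Nfib-floxed metastases lie below all 3 Nfib-floxed lung tumors.

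Genes of secreted antibody made up most of the 19. Igha, the constant region of the IgA heavy chain (GRCm38 chr12:113254830-113260236, minus strand), had 8.82 and 7.37 TPM in the metastases, against 1261, 6206 and 468 TPM in the lung tumors. Jchain, which links antibody units into the polymers that cross mucosal surfaces (chr5:88519809-88527891, minus strand), had 1.56 and 2.05 TPM in the metastases and 413, 612 and 86.6 TPM in the lung tumors. In both genes the lowest lung tumor, that of JHK1399, lay far above the higher metastasis. Igha fell by 7.41 ± 0.99 (SE) on the log2 scale (limma adjusted p = 0.023) and Jchain fell by 6.65 ± 0.87 (limma adjusted p = 0.023). Without the lung tumor of JHK1398 the differences were -6.41 and -6.09. The other 10 called genes of this group were variable segments, 6 of the kappa, 3 of the heavy and 1 of the lambda locus. None exceeded 0.592 TPM in a metastasis, and the lung tumors held 8.35 to 236 TPM of them. Their log2 differences were -6.00 to -3.47. Salmon divides reads among near-identical segments, so the level of any one is uncertain. All 138 variable segments tested lay below 0, but a segment silent in the liver could pass the filter only through the lung tumors, so that count is not support.

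The list of B and plasma cell markers moved with these genes. Of 24 members 18 were tested, Igha and Jchain fell, and 15 of 18 (83.3%, against 14.6% of all genes) were lower without overlap. That share is not support, since the list holds Igha and Jchain themselves. Members nearly silent in the metastases could also pass the filter only through the lung tumors. The list median was -2.81 over the tested members and -1.47 over all 24 in the table. Its summed level was 241 and 292 TPM in the metastases and 1885 to 20894 TPM in the lung tumors. Igkc, the kappa constant region, had 14.6 and 23.7 TPM in the metastases and 2274, 11543 and 939 TPM in the lung tumors (-7.21 ± 1.2, limma adjusted p = 0.059). Iglc1, a lambda constant region with near-identical copies, had 1.13 and 0.462 TPM in the metastases and 63.9, 1087 and 23.6 TPM in the lung tumors (limma adjusted p = 0.16). Neither passed, though the groups did not overlap, and Igkc passed when the lung tumor of JHK1399 was left out. The part that a different number of plasma cells played was not tested.

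Of the airway secretory genes in the club cell list, Cbr2 alone was called. Cbr2, a carbonyl reductase abundant in mouse club cells (chr11:120729489-120732114, minus strand), had 0.785 and 0.669 TPM in the metastases, against 133, 1022 and 178 TPM in the lung tumors. It fell by 7.40 ± 0.92 on the log2 scale (limma adjusted p = 0.019), and the difference was -6.49 without the lung tumor of JHK1398. Scgb1a1, the secretoglobin that defines club cells, had 6.92 and 35.0 TPM in the metastases, against 4691, 50157 and 1358 TPM in the lung tumors. The difference of -8.66 was larger than that of Cbr2, but with an SE of 1.51 it did not pass (limma adjusted p = 0.074). Scgb3a2, another club cell secretoglobin, had 0.363 and 3.13 TPM in the metastases and 445, 3828 and 92.6 TPM in the lung tumors (limma adjusted p = 0.054). Scgb3a1 had 1.76 and 3.21 TPM in the metastases and 1282, 855 and 44.98 TPM in the lung tumors (limma adjusted p = 0.059). The 3 secretoglobins varied by more than 10-fold among the lung tumors, and Cbr2 by less. Without the lung tumor of JHK1399, the lowest of the 3, all 3 secretoglobins passed. All 12 members of the club cell list were tested, Cbr2 alone fell and 8 (66.7%, against 14.6% of all genes) were lower without overlap. Their sum was 398 and 550 TPM in the metastases and 2126 to 56812 TPM in the lung tumors, and the list median was -2.59, or -1.54 without the lung tumor of JHK1398. The part of club cell RNA in the fall of Cbr2 was not tested.

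Most alveolar type 2 genes were lower without overlap but none passed. Of the alveolar type 2 list, surfactant genes among them, 14 of 16 table entries were tested. Of those tested, 13 (92.9%, against 14.6% of all genes) were lower without overlap. Members near 0 TPM in the metastases, such as Sftpb and Sftpa1, passed the filter only through the lung tumors. That share is therefore not support. The median was -3.56 over the tested members and -3.10 over all entries. Sftpc, which encodes surfactant protein C, had 4.60 and 1.04 TPM in the metastases and 73.3, 2357 and 597 TPM in the lung tumors (limma adjusted p = 0.24). Sftpb had 0 and 0.279 TPM in the metastases and 21.1, 335 and 96.6 TPM in the lung tumors, and Sftpa1 had 0.246 and 0.111 TPM in the metastases and 12.3, 206 and 26.3 TPM in the lung tumors. With mouse as a fixed block Sftpc and Sftpb passed at limma adjusted p = 0.0085 and 0.037. The 3 genes were highest in the lung tumor of JHK1398, as Scgb1a1 was. The alveolar type 1 list had a median of -1.52. Without overlap 8 of 13 members were lower (61.5%, against 14.6% of all genes) and 2 higher (15.4%, against 7.64%). Among its most abundant members Ager had 10.04 and 35.6 TPM in the metastases and 92.1, 160 and 43.3 TPM in the lung tumors, and Gprc5a had 2.38 and 11.7 TPM in the metastases and 29.1, 42.5 and 25.7 TPM in the lung tumors. Vegfa, also in that list and made by many cells, was on the other side at 227 and 203 TPM in the metastases and 156, 84.3 and 185 TPM in the lung tumors. None of the 3 passed.

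**Figure D2:**
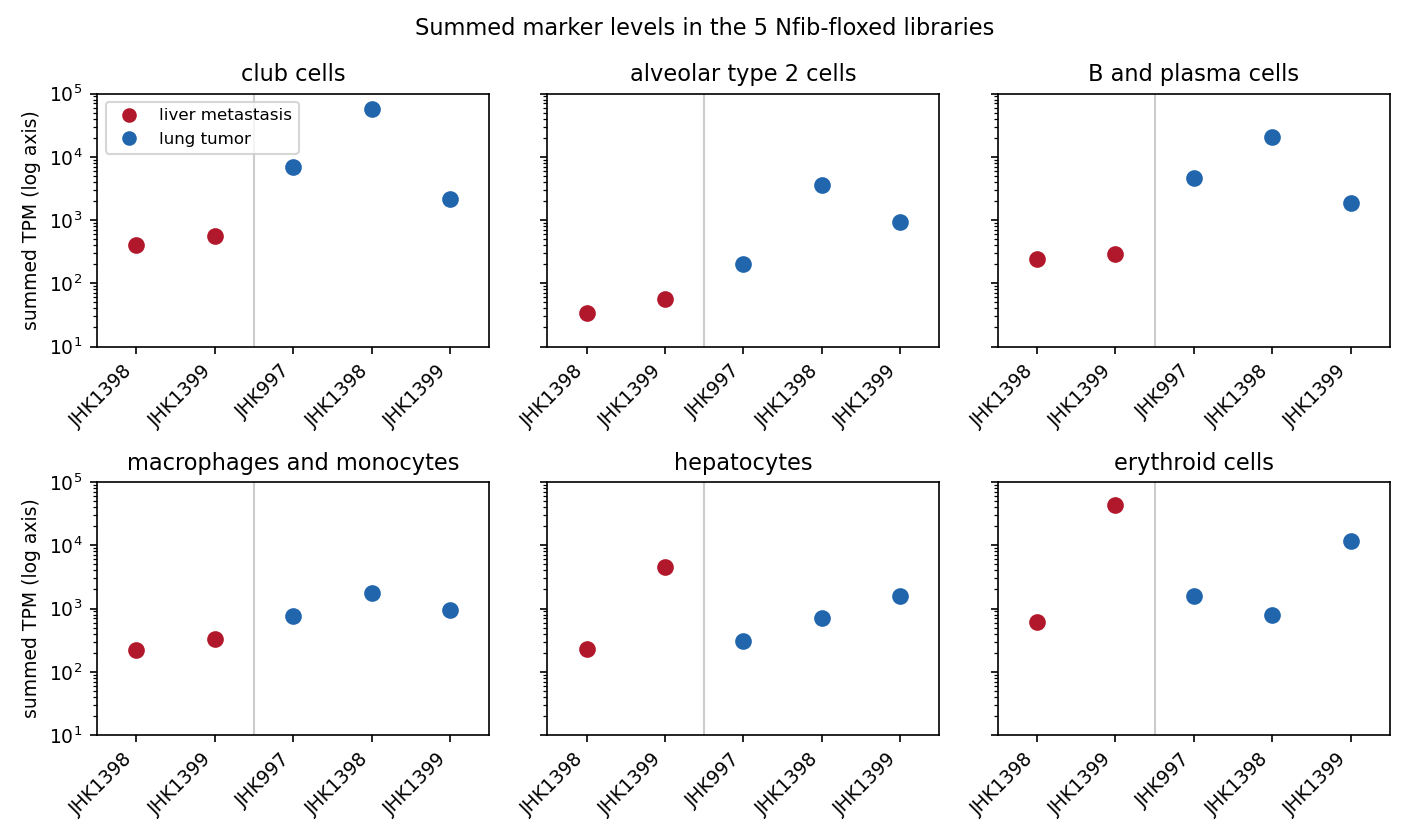
Summed TPM of 6 marker lists on a log axis in each Nfib-floxed library, with the 2 liver metastases left of the 3 lung tumors. Both metastases lie below all lung tumors for the club, alveolar type 2, B and plasma cell and macrophage lists, while the hepatocyte and erythroid sums are high in the metastasis of JHK1399 and low in that of JHK1398.

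Matrix genes of elastic fibres and calcification control came next. Mgp, matrix Gla protein, an inhibitor of soft tissue calcification (chr6:136872435-136875823, minus strand), had 27.2 and 32.3 TPM in the metastases, against 1472, 787 and 457 TPM in the lung tumors. It fell by 4.72 ± 0.42 on the log2 scale, with the smallest adjusted p of the named genes (limma adjusted p = 0.0046). The 2 metastases lay close together and the lung tumors spread about 3-fold. Without the lung tumor of JHK1398 the difference was -4.74, and the adjusted p was then 0.052. Mfap5, a glycoprotein of the microfibrils that scaffold elastin (chr6:122505845-122529290, plus strand), had 0.147 and 0.617 TPM in the metastases and 15.5, 18.4 and 12.3 TPM in the lung tumors. It fell by 3.57 ± 0.42 (limma adjusted p = 0.019), and the difference was -3.44 without the lung tumor of JHK1398. Of the 25 tested members of the list of elastic fibre and calcification genes, 2 fell, these 2. Without overlap 11 were lower (44.0%, against 14.6% of all genes) and 1 higher (4.0%, against 7.64%). The list median was -1.09. Its most abundant members besides Mgp overlapped between the groups. Dcn, the small proteoglycan decorin, had 206 and 53.6 TPM in the metastases and 326, 57.0 and 16.9 TPM in the lung tumors. Spp1, osteopontin, had 21.7 and 335 TPM in the metastases and 40.4, 117 and 14.6 TPM in the lung tumors.

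The other 4 named genes belong to no common pathway. Fmo2, the flavin-containing monooxygenase typical of lung (chr1:162874317-162898726, minus strand), had 0.0843 and 3.73 TPM in the metastases and 58.2, 66.7 and 72.2 TPM in the lung tumors. It fell by 4.88 ± 0.66 on the log2 scale (limma adjusted p = 0.023). The lung tumors differed little from each other and the metastases differed by more than 10-fold. Fmo2 also stood in the list of lung endothelium, where it was the member that fell among 20 tested. Of the 20, 17 lay below 0 and 11 (55.0%, against 14.6% of all genes) were lower without overlap (median -0.94). Vwf and Prox1, named for their abundance, overlapped between the groups, unlike most of this list. Vwf, von Willebrand factor, had 332 and 1272 TPM in the metastases and 510, 1655 and 838 TPM in the lung tumors. Prox1 had 43.9 and 72.9 TPM in the metastases and 40.8, 21.0 and 73.8 TPM in the lung tumors.

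Rasgrf1, an imprinted gene whose product activates RAS (chr9:89909908-90026977, plus strand), had 0.122 and 3.06 TPM in the metastases and 106, 30.9 and 48.4 TPM in the lung tumors. It fell by 4.69 ± 0.66 on the log2 scale (limma adjusted p = 0.027). Of the 13 imprinted genes tested it alone passed. Nnat, an imprinted neuronal proteolipid, was higher without overlap at 3247 and 3133 TPM in the metastases and 1490, 1506 and 2024 TPM in the lung tumors (limma adjusted p = 0.53). Igf2, the fetal growth factor, was lower without overlap at 175 and 194 TPM in the metastases and 372, 353 and 289 TPM in the lung tumors. Peg3 overlapped at 57.1 and 119 TPM in the metastases and 179, 50.1 and 230 TPM in the lung tumors. The imprinted genes thus took no common direction, with a list median of -0.17.

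Samd9l, an interferon-induced gene that restrains growth (chr6:3372257-3399572, minus strand), had 0.798 and 0.866 TPM in the metastases and 36.5, 39.9 and 18.5 TPM in the lung tumors. It fell by 4.08 ± 0.60 on the log2 scale (limma adjusted p = 0.030). Rps4l, a paralog of the ribosomal protein gene Rps4x, is annotated as a transcribed processed pseudogene (chr6:148354656-148355598, plus strand). Its level was 1.35 and 2.00 TPM in the metastases and 75.1, 23.1 and 75.2 TPM in the lung tumors. It fell by 4.29 ± 0.62 (limma adjusted p = 0.030). Rps4x had 1548 and 847 TPM in the metastases and 1010, 506 and 1524 TPM in the lung tumors, with no common direction. Of the 913 windows of 31 bases in the Rps4l transcripts, 8 (0.876%) also occur in Rps4x and could share reads. Without the lung tumor of JHK1398 the differences of Fmo2, Rasgrf1, Samd9l and Rps4l were -4.86, -5.09, -3.88 and -4.84. Of the 9 named genes 4 lie on chromosome 6, which holds 5.25% of the genes tested.

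The promoters of the genes that fell were searched for the half-site bound by nuclear factor I proteins, as Nfib is the floxed gene. All 19 genes were also lower in RPR2 metastases, and the interaction passed for 0 of them. A link of their fall to Nfib was not tested. Of the 9 named genes 5 had an entry among the RefSeq promoters (GRCm38.p6), with 6 windows of 250 bases before the start. The half-site TTGGC, on either strand, occurred in 4 of the 6 windows, against 41.5% of all 32851 windows. It was in 4 of the 5 genes, and no share over all genes was taken to set beside that count. The windows of Cbr2 (chr11:120732022-120732271, minus strand), Rasgrf1 (chr9:89909525-89909774, plus strand), Samd9l (chr6:3399572-3399821, minus strand) and the second window of Fmo2 (chr1:162898494-162898743, minus strand) are shown because these genes fell and the windows carry half-sites, which are in capitals as TTGGC or, on the other strand, GCCAA.
Cbr2: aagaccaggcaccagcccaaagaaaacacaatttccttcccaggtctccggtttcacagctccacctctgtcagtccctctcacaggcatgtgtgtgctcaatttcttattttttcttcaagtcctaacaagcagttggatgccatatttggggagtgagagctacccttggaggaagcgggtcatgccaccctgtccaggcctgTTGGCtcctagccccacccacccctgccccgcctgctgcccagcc
Rasgrf1: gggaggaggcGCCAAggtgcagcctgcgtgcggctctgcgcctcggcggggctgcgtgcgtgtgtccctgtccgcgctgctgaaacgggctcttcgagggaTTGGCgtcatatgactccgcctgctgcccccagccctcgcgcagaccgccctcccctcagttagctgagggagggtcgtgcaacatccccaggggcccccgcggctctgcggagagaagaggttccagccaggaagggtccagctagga
Samd9l: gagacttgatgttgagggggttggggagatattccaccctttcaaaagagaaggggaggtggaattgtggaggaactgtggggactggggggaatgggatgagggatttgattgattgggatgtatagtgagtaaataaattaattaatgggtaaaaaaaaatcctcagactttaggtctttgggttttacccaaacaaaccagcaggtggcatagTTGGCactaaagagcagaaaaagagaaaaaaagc
Fmo2: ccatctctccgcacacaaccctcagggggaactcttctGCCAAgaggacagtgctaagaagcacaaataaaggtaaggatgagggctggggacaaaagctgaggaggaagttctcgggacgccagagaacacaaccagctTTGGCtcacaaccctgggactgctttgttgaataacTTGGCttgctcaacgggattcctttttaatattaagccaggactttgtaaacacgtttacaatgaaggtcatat
The Fmo2 window holds 3 half-sites, that of Rasgrf1 2 and those of Cbr2 and Samd9l 1 each, and the other Fmo2 window and that of Jchain hold 0. The paired site (TTGGC, any 5 bases, GCCAA) was in 0 of the 6 windows and 0.0365% of all. The core CAAGTG of NKX2-1, a lung lineage factor, was in 0 and 11.6%, and the interferon-stimulated response element (GAAA, any 2 bases, GAAA) in 0 and 2.98%, on either strand. A match is a run of letters and no evidence of binding.

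Most genes of MHC class II and of macrophages were lower in the metastases without overlap, and none passed. All 11 tested members of the MHC class II list lay below 0, with a median of -1.86. Of them 9 (81.8%, against 14.6% of all genes) were lower without overlap. Cd74, the invariant chain of class II, had 7.69 and 76.0 TPM in the metastases and 178, 1392 and 350 TPM in the lung tumors (limma adjusted p = 0.27). H2-Aa had 8.71 and 67.3 TPM in the metastases and 182, 1028 and 273 TPM in the lung tumors, and H2-Ab1 had 3.89 and 29.0 TPM in the metastases and 75.2, 634 and 129 TPM in the lung tumors. In all 3 the metastasis of JHK1398 was lowest. Of the 21 macrophage and monocyte markers 20 lay below 0 and 16 (76.2%, against 14.6% of all genes) were lower without overlap (median -1.60). Their sum was 220 and 330 TPM in the metastases and 763 to 1750 TPM in the lung tumors. Lyz2, lysozyme, had 60.4 and 62.5 TPM in the metastases and 168, 537 and 419 TPM in the lung tumors. Ctss, a lysosomal protease, had 39.2 and 69.3 TPM in the metastases and 181, 198 and 196 TPM in the lung tumors. Tyrobp, a signalling adaptor of myeloid cells, had 32.8 and 42.0 TPM in the metastases and 84.0, 182 and 71.6 TPM in the lung tumors. The Kupffer cell list, which marks the resident macrophages of liver, had 6 of 10 tested members below 0 and a median of -0.61. Of the 10, 4 were lower without overlap, against 14.6% of all genes, and 2 higher, against 7.64%. The most abundant members of this list were the complement genes C1qa, C1qb and C1qc, which other macrophages also express. C1qa had 36.2 and 56.8 TPM in the metastases and 104, 329 and 120 TPM in the lung tumors.

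Class I antigen presentation differed less. Its list had a median of -0.39. Of 20 tested members 4 were lower without overlap, against 14.6% of all genes, and none was called. B2m, the light chain shared by class I molecules, had 1842 and 1667 TPM in the metastases and 2221, 5533 and 2522 TPM in the lung tumors. H2-D1 had 1136 and 1925 TPM in the metastases and 2104, 3982 and 2843 TPM in the lung tumors, and H2-K1 had 494 and 691 TPM in the metastases and 747, 1410 and 1130 TPM in the lung tumors. Among 36 interferon response genes Samd9l alone fell, 13 (36.1%, against 14.6% of all genes) were lower without overlap and the median was -1.06. The list median was -2.01 within JHK1398 and -0.26 within JHK1399, and -0.15 without both libraries of JHK1398. Ifi27 overlapped at 226 and 393 TPM in the metastases and 321, 538 and 336 TPM in the lung tumors, as did Ifi35 at 45.7 and 66.9 TPM in the metastases and 55.9, 114 and 83.7 TPM in the lung tumors. Irf1, a transcription factor induced by interferon, had 40.6 and 76.2 TPM in the metastases and 93.0, 90.1 and 78.7 TPM in the lung tumors.

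**Figure D3:**
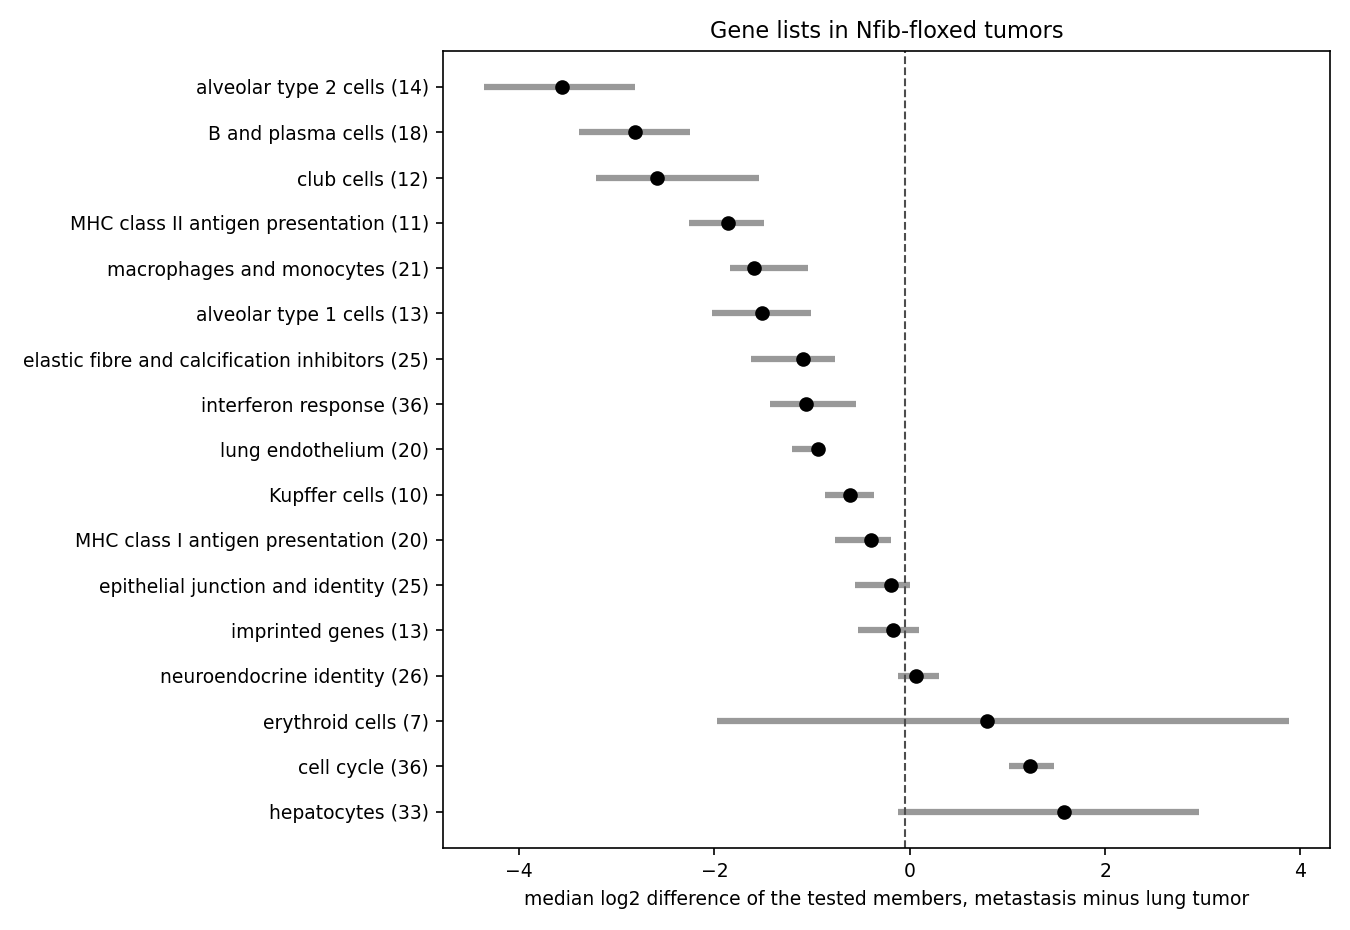
Median log2 difference of the tested members of 17 gene lists, metastasis minus lung tumor in Nfib-floxed mice (black points, number of members in parentheses). Grey bars span the medians when each of the 5 libraries is left out in turn, and the dashed line is the median of all genes, -0.05. The cell cycle list stays above 0 and the 11 lists from alveolar type 2 cells to MHC class I stay below, while the hepatocyte and erythroid bars cross 0.

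On the higher side, proliferation genes stood out by number although none passed. Of 36 cell cycle genes, all tested, 34 lay above 0, against 46.2% of all genes, and 23 were higher without overlap, against 7.64% of all genes. The list median was 1.23, and 1.01 to 1.48 with each library left out in turn. It was 1.62 within JHK1398 and 0.51 within JHK1399, and 0.64 without both libraries of JHK1398. Medians of whole autosomes were -0.0034 to 0.70 within JHK1398 and -0.46 to 0.18 within JHK1399. The values within each mouse were not adjusted for that shift. Cdk1, the kinase that drives entry into mitosis, had 593 and 402 TPM in the metastases and 180, 137 and 238 TPM in the lung tumors (1.43 ± 0.38, limma adjusted p = 0.27). Top2a, the topoisomerase of dividing cells, had 454 and 273 TPM in the metastases and 93.1, 143 and 146 TPM in the lung tumors (limma adjusted p = 0.35). Pcna, the replication clamp, overlapped at 1224 and 539 TPM in the metastases and 729, 367 and 624 TPM in the lung tumors.

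The 10 named genes with the smallest p on the higher side had adjusted p of 0.15 to 0.21. Pimreg, a mitotic regulator, led with 120 and 143 TPM in the metastases and 41.0, 48.6 and 43.5 TPM in the lung tumors (1.54 ± 0.32, limma adjusted p = 0.15). Cks1b, a cofactor of cyclin-dependent kinases, had 225 and 125 TPM in the metastases and 52.8, 67.3 and 53.4 TPM in the lung tumors. Cenpa, the centromeric histone, had 273 and 270 TPM in the metastases and 90.1, 82.4 and 115 TPM in the lung tumors. Aurka, a kinase of the spindle poles, had 149 and 129 TPM in the metastases and 38.3, 24.6 and 68.1 TPM in the lung tumors. Lmnb1 (a nuclear lamin), Melk (a kinase of cycling cells) and Kif20a (a mitotic kinesin) had log2 differences of 1.49, 1.74 and 1.69. The other 3 were Rnf39, Avil and Cyp39a1. Avil, advillin, an actin-binding protein of sensory neurons and tuft cells, had 13.0 and 40.7 TPM in the metastases and 2.56, 0.920 and 2.85 TPM in the lung tumors (3.02 ± 0.68, limma adjusted p = 0.21). Rnf39, a RING finger protein, had 18.0 TPM in both metastases and 0.954, 1.52 and 0.754 TPM in the lung tumors (3.21 ± 0.70, limma adjusted p = 0.18). Cyp39a1, an oxysterol hydroxylase, had 30.6 and 39.1 TPM in the metastases and 14.4, 7.16 and 12.4 TPM in the lung tumors. The groups did not overlap in any of the 10, which the rule that named them required.

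Of 33 tested hepatocyte genes 28 lay above 0 and 7 (21.2%, against 7.64% of all genes) were higher without overlap, with a median of 1.58. None passed, and the metastases differed from each other. Their sum was 227 TPM in the metastasis of JHK1398, 4499 TPM in that of JHK1399 and 301 to 1574 TPM in the lung tumors. The median was 2.96 without the JHK1398 metastasis and -0.12 without that of JHK1399. In the RPR2 metastases the sums were 14792 and 15658 TPM. Trf, transferrin, had 47.8 and 884 TPM in the metastases and 112, 427 and 185 TPM in the lung tumors. Ttr, transthyretin, had 6.12 and 193 TPM in the metastases and 30.6, 65.8 and 1107 TPM in the lung tumors, the highest level being in the lung tumor of JHK1399. Erythroid genes went the same way by library, with a sum of 623 and 43138 TPM in the metastases and 1555, 784 and 11859 TPM in the lung tumors. Hbb-bs, a beta globin, had 236 and 18064 TPM in the metastases and 646, 105 and 5239 TPM in the lung tumors. Hba-a1 and Hba-a2, near-identical alpha globins whose split is uncertain, had log2 differences of 0.56 ± 1.71 and 0.79 ± 1.77. In both lists the metastasis of JHK1399 was the highest of the 5 libraries.

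Without the JHK1398 metastasis 8 genes passed as higher, in a fit where the spread of the lone metastasis is taken from the other groups. Ahsg and Apoa4 among them encode liver proteins, with log2 differences of 4.87 and 5.25. Sele, Tm4sf4, Xlr4a and Xlr4b were also among them. Without the JHK1399 metastasis 3 genes passed as higher, Svbp, Slc2a1 and Zfp691, with log2 differences of 5.01, 5.27 and 5.36. The genes named here were looked up after their values were seen, and each describes 1 metastasis.

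No gene of neuroendocrine identity passed between the tissues. The list had a median of 0.06, with 1 of 26 higher and 1 lower without overlap (3.85% each, against 7.64% and 14.6% of all genes). Ddc, an enzyme of monoamine synthesis, had 1180 and 807 TPM in the metastases and 286, 295 and 883 TPM in the lung tumors. Resp18, a protein of secretory granules, was the member that was lower without overlap, at 197 and 893 TPM in the metastases and 1802, 1777 and 1721 TPM in the lung tumors (-2.07 ± 0.58, limma adjusted p = 0.31). Calca had 5470 and 57529 TPM in the metastases and 71946, 6044 and 68511 TPM in the lung tumors, so both tumors of JHK1398 were low. Neurod1 and Pou2f3, factors of other subtypes, stayed under 1 TPM in all 5 libraries and were not tested. Yap1 had 2.41 and 3.84 TPM in the metastases and 4.08, 9.11 and 3.43 TPM in the lung tumors.

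MYC family levels went with single tumors. Mycl had 981 and 31.6 TPM in the metastases and 48.8, 12.2 and 20.4 TPM in the lung tumors, so the high level was that of JHK1398 alone (2.89 ± 1.12, limma adjusted p = 0.45). Without the JHK1398 pair the difference was -0.0045. Myc had 0.919 and 3.29 TPM in the metastases and 13.2, 8.82 and 1.74 TPM in the lung tumors, and Mycn had 3.89 and 6.98 TPM in the metastases and 20.8, 3.59 and 6.35 TPM in the lung tumors. Mxd4, an antagonist of MYC at its binding partner MAX, was lower without overlap at 80.5 and 103 TPM in the metastases and 270, 177 and 132 TPM in the lung tumors (limma adjusted p = 0.42). Max itself had 58.9 and 83.3 TPM in the metastases and 59.4, 45.1 and 62.6 TPM in the lung tumors.

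Nfib was the member of its family that was higher without overlap. Nfia had 5.40 and 1.32 TPM in the metastases and 2.75, 6.03 and 1.31 TPM in the lung tumors. Nfic had 38.2 and 58.5 TPM in the metastases and 68.3, 47.4 and 69.0 TPM in the lung tumors. Nfix had 2.11 and 20.4 TPM in the metastases and 10.2, 9.4 and 56.7 TPM in the lung tumors, and none of the 4 passed. The tumor suppressor genes deleted in the model had TPM above 0 in all 5 libraries, and a total over the gene does not show which exons were read. Rb1 had 94.0 and 131 TPM in the metastases and 74.3, 41.6 and 114 TPM in the lung tumors. Trp53 had 10.8 and 17.7 TPM in the metastases and 28.0, 27.6 and 18.7 TPM in the lung tumors, and Rbl2 had 7.99 and 38.9 TPM in the metastases and 23.6, 6.97 and 32.4 TPM in the lung tumors.

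The epithelial list held the most genes whose tissue difference was not that of RPR2 mice. Of 25 tested junction and epithelial identity genes 0 passed between the Nfib-floxed tissues, and the median was -0.19. Without overlap 3 were lower (12.0%, against 14.6% of all genes). In RPR2 mice 21 of these genes fell and the median was -3.91. In RPR2 mice 4.42% of all genes passed and 3.27% fell. The difference between the genotypes, tested as the interaction in the same model, passed for 81 genes (0.531% of those tested). With 1 RPR2 library left out it passed for 24 to 39 genes, without the Nfib-floxed metastasis of JHK1398 for 39 and without the Nfib-floxed lung tumor of JHK1399 for 37. Of the 81, 14 were in the epithelial list. Cdh1, the adhesion protein E-cadherin, had 236 and 352 TPM in the Nfib-floxed metastases, against 250, 209 and 366 TPM in the Nfib-floxed lung tumors. It had 5.46 and 5.20 TPM in the RPR2 metastases, against 446, 426 and 270 TPM in the RPR2 lung tumors. The Nfib-floxed groups overlapped and the RPR2 groups lay far apart (interaction 5.99 ± 0.48, limma adjusted p = 0.00064). The call of Cdh1 held in all 24 alternatives. Krt8, a keratin of simple epithelia, had 540 and 1026 TPM in the Nfib-floxed metastases and 826, 1034 and 540 TPM in the Nfib-floxed lung tumors (interaction 3.16, limma adjusted p = 0.047). Krt18, its partner keratin, had 360 and 778 TPM in the metastases and 877, 937 and 507 TPM in the lung tumors, and Spint2, a protease inhibitor of epithelia, 433 and 570 TPM in the metastases and 563, 1061 and 450 TPM in the lung tumors. For Krt18 and Spint2 the interaction did not pass (limma adjusted p = 0.18 and 0.16).

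Of the 81 genes, 75 (0.492% of those tested) had a higher tissue difference in Nfib-floxed than in RPR2 mice and 6 (0.0394%) a lower one. This split was not stable: it was 42 higher and 63 lower without the Nfib-floxed metastasis of JHK1399, 56 higher and 57 lower with no filter on low genes, and 36 higher and 13 lower with a pseudocount of 5. None of the 81 had passed between the Nfib-floxed tissues. For the 75, the median tissue difference was 0.21 in Nfib-floxed mice and -4.01 in RPR2 mice, and 74 of them fell in the RPR2 metastases. Of the 75, 56 overlapped between the Nfib-floxed tissues. Over all genes tested, 14.6% were lower and 7.64% higher without overlap, so a similar share overlapped and that count does not mark the 75. Ret, a receptor tyrosine kinase of neuroendocrine cells, had 109 and 81.3 TPM in the Nfib-floxed metastases and 68.5, 54.7 and 61.1 TPM in the Nfib-floxed lung tumors, but 3.09 and 1.96 TPM in the RPR2 metastases and 128, 110 and 93.0 TPM in the RPR2 lung tumors. Its Nfib-floxed levels were higher without overlap and its RPR2 levels lower. R3hdml, Cldn7 (a tight junction claudin), Ap1m2 (an epithelial sorting adaptor), Ehf (an epithelial ETS factor), Tmprss4 (a membrane serine protease) and Aldh1a7 (an aldehyde dehydrogenase) had interactions of 5.78, 5.53, 5.23, 5.27, 5.04 and 5.02, with limma adjusted p of 0.00064 to 0.0063. Vwf of the endothelial list passed as well, at 4.49 (limma adjusted p = 0.043).

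The 5 named genes on the other side were lower in both Nfib-floxed metastases than in both RPR2 metastases. Dbn1, the actin-binding drebrin of neurons, had 5.76 and 4.35 TPM in the Nfib-floxed metastases and 5.81, 2.05 and 2.22 TPM in the Nfib-floxed lung tumors. It had 67.6 and 148 TPM in the RPR2 metastases and 2.88, 1.85 and 4.99 TPM in the RPR2 lung tumors (interaction -4.08 ± 0.76, limma adjusted p = 0.048). Adamts10, a metalloprotease of the ADAMTS family, had 1.25 and 1.80 TPM in the Nfib-floxed metastases, lower without overlap than in the Nfib-floxed lung tumors. Those had 7.29, 22.96 and 6.34 TPM. Adamts10 had 51.3 and 72.0 TPM in the RPR2 metastases and 3.80, 7.17 and 7.83 TPM in the RPR2 lung tumors. Lingo1, a neuronal receptor component, Fndc4 and Tceal3 had interactions of -4.89, -3.91 and -4.97. Calls on this side were less stable: that of Adamts10 was lost in 7 of 24 alternatives, and those of Dbn1, Lingo1, Fndc4 and Tceal3 in 15 or 16 of 23, among them leaving out either RPR2 metastasis.

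**Figure D4:**
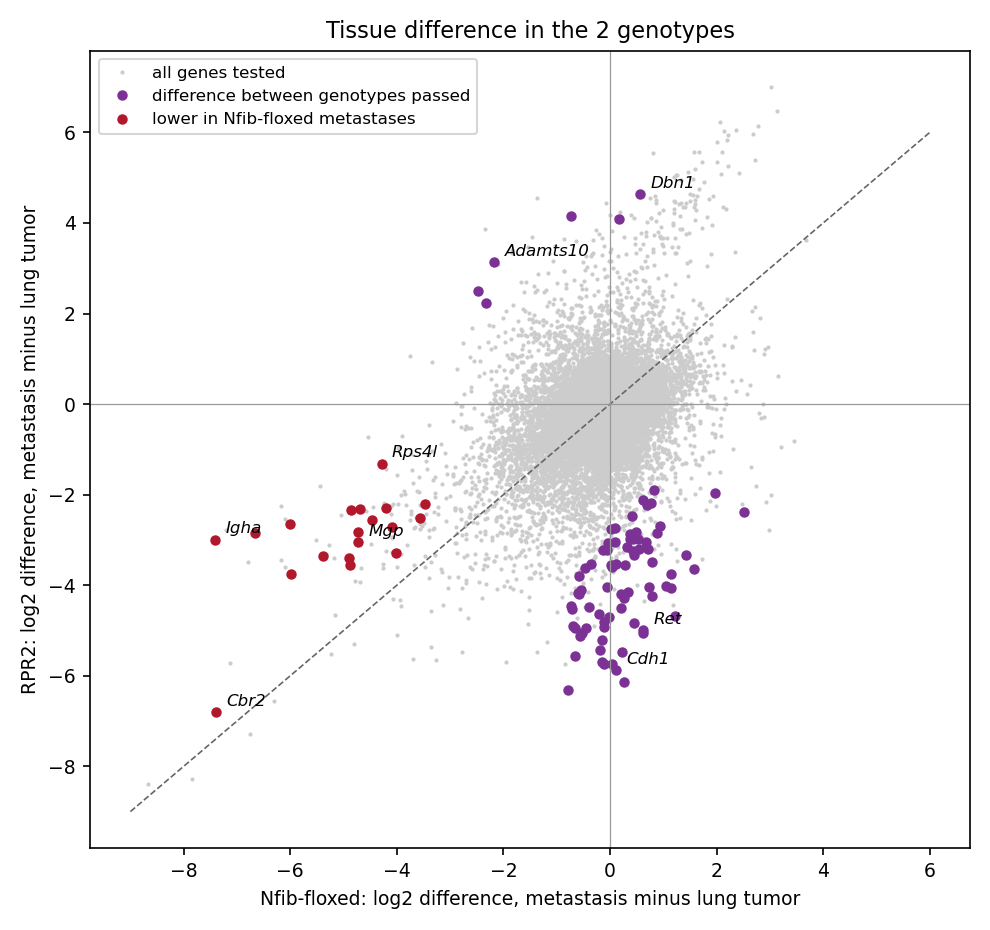
Log2 difference between metastasis and lung tumor in Nfib-floxed mice (horizontal) against that in RPR2 mice (vertical) for the 15243 genes tested (grey). Genes whose difference differed between the genotypes are purple (81), genes that fell in Nfib-floxed metastases red (19), and the dashed line marks equal differences. The red points all lie below 0 on both axes, and most purple points lie near 0 on the horizontal axis and far below 0 on the vertical.

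The 19 genes that fell in Nfib-floxed metastases were also lower in RPR2 metastases, without overlap for all 19 and past the test for 12. Of all genes tested 3.27% fell in the RPR2 metastases, and no share without overlap was taken for the RPR2 groups. For none of the 19 did the interaction pass (limma adjusted p = 0.29 to 0.96). The interactions ran from -4.42 for Igha to -0.60 for Cbr2, so every fitted fall was larger in Nfib-floxed mice. Cbr2 had 2.64 and 3.06 TPM in the RPR2 metastases and 159, 1398 and 347 TPM in the RPR2 lung tumors, close to the Nfib-floxed pattern. Igha had 171 and 21.6 TPM in the RPR2 metastases and 419, 395 and 733 TPM in the RPR2 lung tumors. Its RPR2 difference of -2.99 did not pass (limma adjusted p = 0.13). Rps4l and Rasgrf1 were low in the RPR2 lung tumors already. Rps4l had 2.30 and 2.47 TPM in the RPR2 metastases and 3.72, 6.96 and 14.9 TPM in the RPR2 lung tumors, and Rasgrf1 had 0.212 and 0.298 TPM in the RPR2 metastases and 2.88, 7.09 and 6.76 TPM in the RPR2 lung tumors. Their RPR2 differences, -1.32 and -2.32, did not pass (limma adjusted p = 0.31 and 0.082).

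Whole chromosomes also differed in level in single libraries, a pattern looked for after the values were seen. Over the 12201 genes that averaged 5 TPM or more in the 10 libraries, each level was taken relative to the gene's median over the 10 libraries, and the median over each chromosome was found. In the lung tumor of JHK1399 the 378 X-linked genes had a median of 1.0, while its autosomes had -0.16 to 0.17. Within JHK1399 the metastasis minus lung tumor median was -1.05 on the X, with 91.8% of genes below 0, and -0.46 to 0.18 on the autosomes. All 9 windows of 20 Mb along the X had medians of -1.27 to -0.85. Within JHK1398 the X had 0.26 and the autosomes -0.0034 to 0.70. Chromosome 19 was low in the metastasis of JHK1399, at -0.64, and none of its other chromosomes lay below -0.04. No gene that fell lies on the X.

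**Figure D5:**
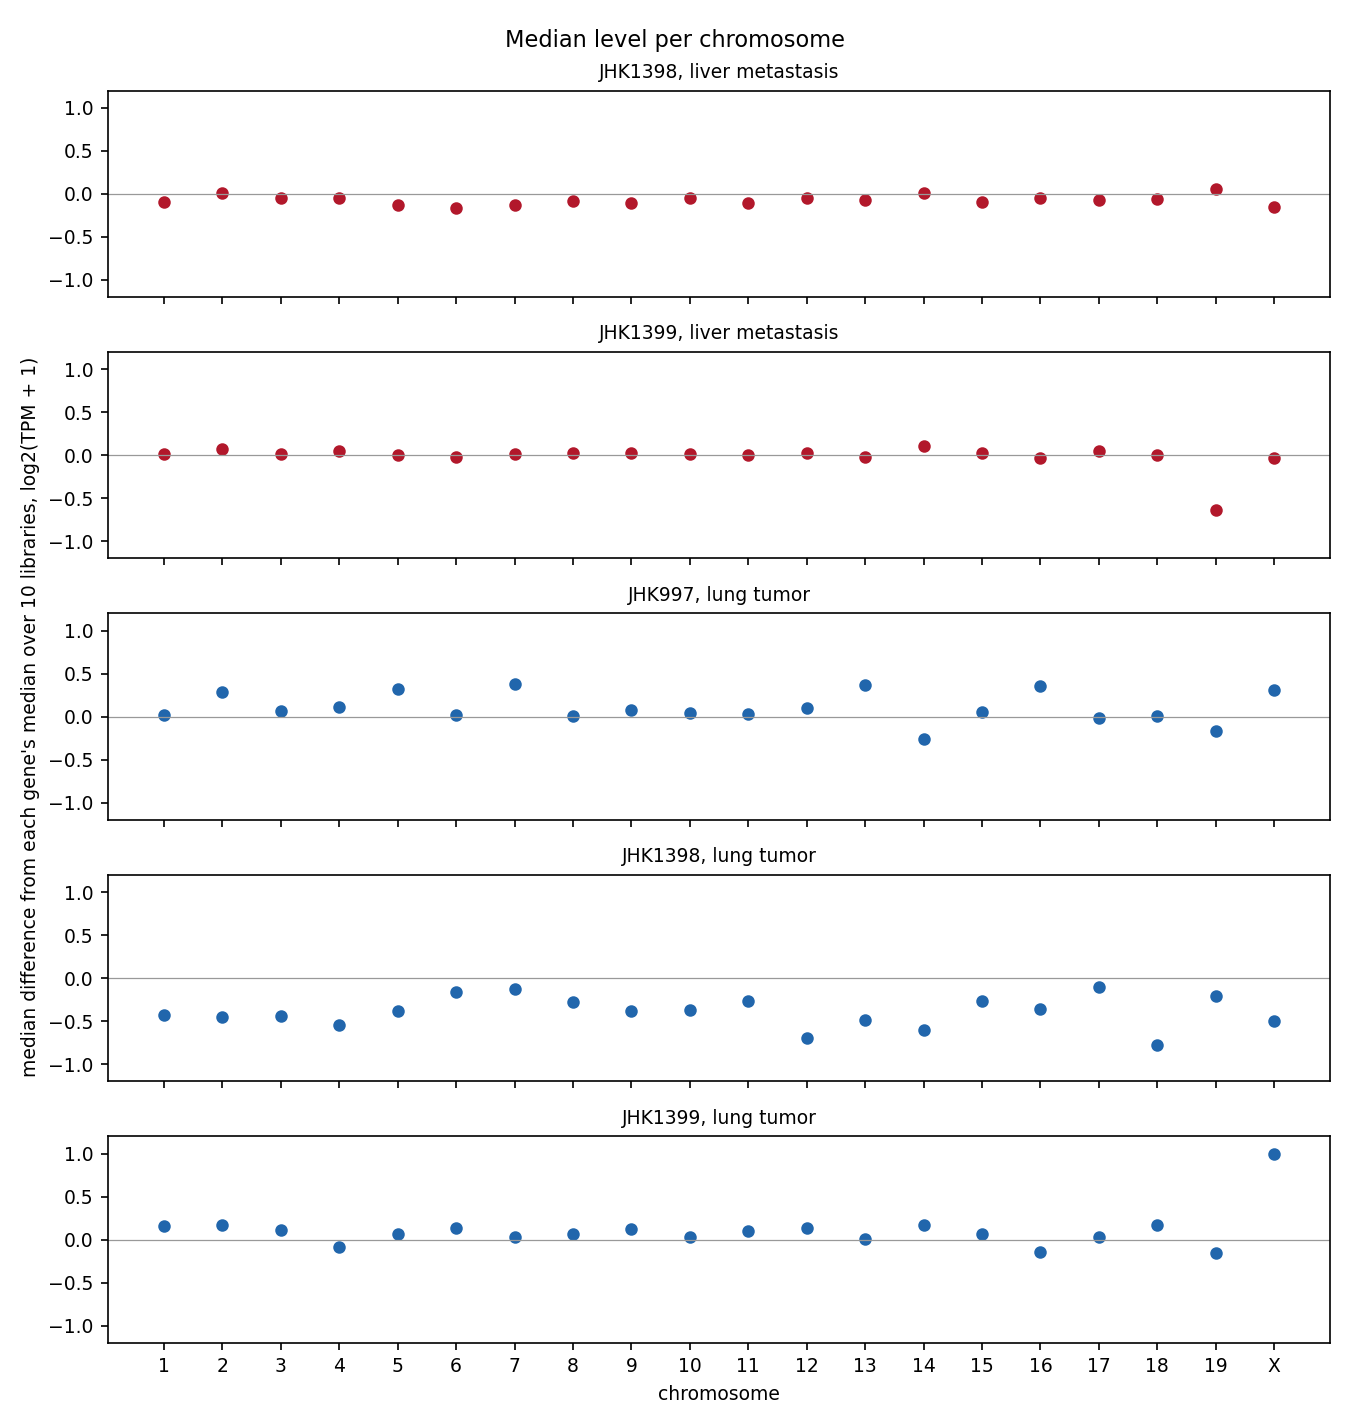
Median per chromosome of the difference from each gene's median over the 10 libraries, on the log2(TPM + 1) scale, with the 2 Nfib-floxed metastases above the 3 lung tumors. The X stands at 1.0 in the lung tumor of JHK1399 and chromosome 19 at -0.64 in the metastasis of JHK1399, while the lung tumor of JHK1398 lies below 0 on every chromosome.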

How the data were processed

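RNA was polyA-selected from total RNA of snap-frozen tumors and made into libraries with a NEBNext Ultra II kit, per the labels' protocols. The submitters' processing notes name bcl2fastq 2.20, Salmon 0.12.0, R 4.1.0 and build GRCm38. Annotation, settings and strand use were not given in the sources read, so reads of overlapping antisense genes may be mixed. The authors deposited TPM values, whose total is 1000000 in every library. Depth cannot be had from TPM, and no counting interval is given. Positions are from the GENCODE annotation of GRCm38, which held 35099 of 35288 identifiers.

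A limma 3.58.1 model (R 4.3.3) of the 4 groups over all 10 libraries was fitted to log2(TPM + 1), with moderated variances and a mean trend (6 residual degrees of freedom, prior 4.59). The 5 RPR2 libraries thus share in the estimate of spread. Tests were two-sided, and p-values were adjusted over the 15243 genes. Fold changes on this scale understate the change of low genes. The 2 tumors of a mouse entered as independent samples, although the labels pair them by mouse tag. Deviations of paired libraries from their group means correlated at 0.04, 0.05, -0.03 and -0.02. The 2 metastases of a genotype deviate by equal and opposite amounts, so its 2 values are not separate checks and cannot show independence. No 2 libraries held identical values. Code was tested on simulated data, and Python 3.11.15 with pandas 2.3.3, numpy 2.4.6 and matplotlib 3.10.9 made the tables and plots.

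The 54 lists hold 988 symbols, 6 unmatched, of which 20 lists are described. Named genes are those called whose higher group averaged 5 TPM or more; where fewer than 10 pass in a direction, those with the smallest p whose groups do not overlap, until 10; the 3 most abundant and all called members of each list described; the NFI family and regulators such as Yap1 and the MYC genes; and up to 8 genes a direction for the interaction. Predicted genes and antigen receptor segments are counted only; a few genes meeting the rule are not reported here. The members, lists and rule were chosen with earlier results of these data known.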

Additional observations from a re-analysis of the deposited data

Results flagged for a closer look

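For 81 genes the difference between metastasis and lung tumor was not the same in Nfib-floxed and RPR2 mice, by limma's test of that difference itself. Values are the Nfib-floxed difference minus the RPR2 difference on the log2 scale. On the higher side they were 5.99 for Cdh1, 5.78 for R3hdml, 5.6 for Ret, 5.53 for Cldn7, 5.27 for Ehf, 5.23 for Ap1m2, 5.04 for Tmprss4 and 5.02 for Aldh1a7. On the lower side they were -5.31 for Adamts10, -4.97 for Tceal3, -4.89 for Lingo1, -4.08 for Dbn1 and -3.91 for Fndc4. The number of such genes was 24 to 39 with any 1 of the 5 RPR2 libraries left out, and 37 to 105 with any 1 of the Nfib-floxed libraries left out. Each genotype has 2 metastases and 3 lung tumors, so the values compare 5 libraries with 5 and rest on only 2 metastases in each genotype.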

How the results depend on the processing

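Each library was left out in turn. Over the 5 Nfib-floxed libraries the count of lower genes was 0 to 28, of higher genes 0 to 8, and of genes whose difference differed between genotypes 24 to 105 over all 10. Counts of lower genes were 40 with a pseudocount of 0.1, 1 with 5, 0 with no filter (23628 genes tested), 9 with median centring, 1 with a minimum log2 difference of 1 and 0 without both libraries of JHK1398. With array weights 1 gene was higher. With mouse as a fixed block, which drops the lung tumors of JHK997 and JHK1548 from the tissue difference, the replicate block gave 4 lower genes, 1 of them among the 19, and 10 between genotypes. With mouse as a random block (estimated correlation 0.051) there were 24 lower genes, including all 19. Counts between genotypes were 49 with a pseudocount of 5, 47 with quantile normalization, 19 with a minimum difference of 1 and 39 without both libraries of JHK1398. Quantile normalization gave a median of 0.07 over all genes tested, against -0.05. The 19 were all kept with a pseudocount of 0.1, robust moderation and a filter over 10 libraries. Beyond leaving out a library, the causes were not tested.

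The 9 named genes that fell kept their sign in every alternative. The genes whose difference changed sign had not passed. With a pseudocount of 5 Trf had 0.028. With quantile normalization Nfia had 0.30 and Trf 0.11. With median centring Krt8 had 0.011, Nfia 0.035 and Trf 0.065. With rescaling Rbl2 had -0.0038. With array weights Dcn had -0.058, Krt8 0.025, Nfia 0.20, Rbl2 -0.39 and Trf 0.50. With the fixed replicate block Mycn had 0.10. Without both libraries of JHK1398 Dcn had -0.49, Ifi27 0.26, Krt18 0.22, Krt8 0.62, Mycl -0.0045, Pcna -0.32, Spint2 0.18, Trf 2.61, Ttr 0.051, Vwf 0.96 and Yap1 0.030. With each Nfib-floxed library left out in turn the log2 differences ranged from -0.33 to 5.07 for Alb, -2.50 to 0.89 for Calca, -0.38 to 1.72 for Dcn, -2.77 to 3.89 for Hba-a1, -2.58 to 4.16 for Hba-a2 and -1.59 to 4.67 for Hbb-bs. They ranged from -0.77 to 0.021 for Ifi27, -1.05 to 0.058 for Krt18, -0.52 to 0.41 for Krt8, -1.02 to 0.10 for Mycn, -0.76 to 0.70 for Nfia, -2.60 to 0.18 for Nfix and -0.032 to 1.15 for Pcna. For Rbl2 the range was -1.06 to 1.09, for Spp1 -0.90 to 2.99, for Trf -2.09 to 2.09, for Ttr -4.22 to 0.55 and for Vwf -1.42 to 0.51.

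With 2 metastases against 3 lung tumors, 1 library decides most calls. Where a metastasis is left out, the other is assumed to vary like the other groups. The depth is unknown, so low levels carry no counting error here.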
